A study of Rattus norvegicus with 256 samples.

Results

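A set of 8 genes of the interferon response were followed through the organs of healthy rats: Ifngr2, Stat2, Irf1, Irf7, Mx1, Mx2, Isg15 and Oas1a. Members were all probesets that the array annotation gives to these symbols, which came to 11 of the 31042 probesets, for 8 of the 14217 genes with a probeset of their own. Ifngr2, Stat2 and Mx2 had 2 probesets each and the other genes 1. For each gene the leading probeset is the one with the highest mean over the organs, and values belong to it unless the other probeset is named.

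All animals were untreated Han Wistar-derived rats of the strain AlpkHsdBrlHan:WIST, 5 males and 5 females, killed with halothane and dissected at once. Ages were not given in the sources used here. Every array measured a single organ from a single animal, and the arrays covered 31 organs, 26 of them present in both sexes and 5 in one sex only, with 2 to 5 arrays in each of 57 groups of organ and sex. The comparisons asked how a resting interferon response differs between organs, between individual rats and between the sexes, and since no group received interferon or an infection, all values describe the baseline.

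Interferons are secreted proteins that warn cells of infection. Type I interferons act through a receptor that activates Stat2, which joins Irf9 in a complex that binds interferon-stimulated response elements, while interferon gamma acts through the receptor chains Ifngr1 and Ifngr2 and leads to binding at gamma-activated sites. Irf1 is a transcription factor induced mainly by interferon gamma, and Irf7 is a transcription factor that is itself induced by interferon and amplifies the production of interferon alpha. Mx1 and Mx2 are dynamin-like antiviral GTPases, Isg15 is a ubiquitin-like protein that is attached to other proteins, and Oas1a makes the oligoadenylates that activate RNase L.

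Promoter sequence from RefSeq (GRCr8) was held for 6 of the 8 genes, and the entries for Isg15 and Mx2 were missing. Windows of 300 bases around the start site were searched on both strands for the core of the interferon-stimulated response element (GAAA, any pair of bases and GAAA again) and for TTCNNNGAA, the gamma-activated site. The response element core was found in Irf7 and Oas1a, that is in 2 of 6 windows (33.3%), against 3.92% of 33469 promoters of the table. TTCNNNGAA was found in Irf1 and Oas1a, again 2 of 6, against 8.87% of all promoters. The 150 bases before the start sites used for these 3 genes are shown because they hold the matches nearest to the start. The motif is in capitals (TTCNNNGAA in Irf1, the response element core in the other genes, read from the opposite strand in Irf7 and as a pair of overlapping matches in Oas1a). The Irf7 stretch lies inside the annotated gene (chr1:205796956-205800543), so the start site used is not the outer end of that gene. In Oas1a the stretch overlaps the first bases of the annotated gene (chr12:41330423-41341130).
Irf1, chr10:38417785-38417934, plus strand: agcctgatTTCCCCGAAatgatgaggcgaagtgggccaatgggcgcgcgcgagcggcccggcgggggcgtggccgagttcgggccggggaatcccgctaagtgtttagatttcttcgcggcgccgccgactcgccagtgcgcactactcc
Irf7, chr1:205800024-205800173, minus strand: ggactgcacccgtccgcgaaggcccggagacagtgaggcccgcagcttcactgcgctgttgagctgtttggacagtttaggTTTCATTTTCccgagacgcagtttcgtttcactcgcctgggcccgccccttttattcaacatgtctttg
Oas1a, chr12:41330316-41330465, plus strand: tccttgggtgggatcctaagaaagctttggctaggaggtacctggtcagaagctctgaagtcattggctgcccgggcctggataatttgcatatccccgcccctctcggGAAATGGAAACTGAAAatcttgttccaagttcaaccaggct
Mx1 (chr11:50269056-50294699) and Mx2 (chr11:50375101-50399373) are neighbours on chromosome 11, and Ifngr2 (chr11:44265703-44283975) lies on the same chromosome.

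Array medians ran from 3.86 to 4.45 on the log2 scale, and the number of arrays per group limits the precision. In each of the 31 organs at least 1 marker of that organ ranked among the top 3 organs, and 76 of 78 such markers passed the expression threshold of the methods, a log2 value that corresponds to 100.4 on the linear scale. Of all arrays 4 were at odds with their labelled sex in Xist or Eif2s3y. Aorta male 3 and heart male 5 read 8.77 and 8.55 for Xist (mean of its probesets) and 3.65 and 3.04 for Eif2s3y. Bone marrow male 5 and bone marrow female 2 were mixed, at 7.10 and 6.82 for Xist and 6.04 and 8.43 for Eif2s3y. Without these 4 arrays the numbers of calls between the sexes (2), between rats (7) and between 1 rat and the others (19) stayed at the same value. The title number was read as the rat. The supplement numbers the samples of ovary, pituitary, bone marrow and adrenal in a series of their own, so the comparison of rats used 205 arrays of the other 23 somatic organs.

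Each member was first compared between each organ and the mean of the other 30 organs in 1 limma fit, and a call asked for a difference over 2-fold, a mean above the expression threshold and an adjusted p below 0.05. Members were called higher in 68 of 341 comparisons of a probeset and an organ (8% over all probesets) and lower in 81 (10.3% over all probesets). A sample of an organ holds many cell types, and fewer cells of a type cannot be told apart from less RNA per cell. Values of different probesets depend on their probes, so levels are compared here between organs and not between genes.

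Ifngr2, the signalling chain of the interferon gamma receptor, was highest along the intestine. It ran from 10.87 to 11.45 in the 10 arrays of the ileum (median 10.99), from 10.66 to 11.37 in the caecum (median 10.89) and from 10.60 to 11.10 in 9 arrays of the jejunum (median 10.95). Colon and duodenum followed, at 10.65 ± 0.13 (SD, n = 10) and 10.44 ± 0.49 (n = 9), and the spleen was next at 9.23. Neighbouring intestinal organs overlapped in their arrays. The ileum stood 2.70 log2 units above the other organs (SE 0.09, limma adjusted p = 7.78e-78). At the other end were the adrenal at 7.01 ± 0.37 (n = 10), the testes at 5.97 ± 0.14 (n = 4) and the pituitary at 5.20 ± 0.38 (n = 10), where the difference from the other organs was -3.35 (SE 0.09, limma adjusted p = 2.54e-94). The arrays of the testes lay below every array of the adrenal. The other probeset of Ifngr2 gave the same 5 intestinal organs as the highest, from 9.59 in the ileum to 8.32 in the duodenum, and the 2 probesets correlated over the 31 organ means with r = 0.93.

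Stat2, which carries the type I interferon signal to the nucleus, was highest in spleen, prostate and liver. Liver arrays lay within 8.29 to 8.94 (median 8.70, n = 9) and spleen arrays within 8.43 to 9.66 (median 8.67, n = 8), so both overlapped. In the thyroid the range was 7.70 to 8.92 (median 8.35, n = 10), and there the other probeset of Stat2 was at 8.45 ± 0.32, second to the spleen at 8.57. The difference from the other organs was 1.75 in the liver (SE 0.11, limma adjusted p = 5.59e-37) and -3.0 in the testes (SE 0.16, limma adjusted p = 4.56e-45). The 4 testis arrays lay between 3.72 and 4.48, below every array of the pancreas (4.54 to 6.38), the next organ in the order.

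Irf1 was high in gut and lymphoid organs. The ileum was at 10.62 ± 0.25 (n = 10), the mesenteric lymph node at 10.54 ± 0.21 (n = 8), the jejunum at 10.53 ± 0.25 (n = 9), the mandibular lymph node at 10.46 and the spleen at 10.36, all overlapping with their neighbours in this order. Its mean passed the expression threshold in 28 of 31 organs. Prostate, brain and testes were the exceptions. Brain arrays ran from 3.72 to 4.98 (median 4.33, n = 10) and the 4 testis arrays read 3.49, 4.06, 4.38 and 3.29, and neither organ reached the lowest prostate array at 5.43. Against the other organs the difference was -4.24 in the brain (SE 0.13, limma adjusted p = 8.91e-79) and -4.76 in the testes (SE 0.21, limma adjusted p = 2.70e-56).

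Irf7 was highest in the spleen, whose 8 arrays ran from 9.61 to 12.05 (median 10.60). Adipose followed at 9.57 ± 0.67 (n = 10), then uterus at 9.33 ± 0.68 (n = 5) and ileum at 9.26 ± 0.47 (n = 10). Spleen exceeded the other organs by 3.49 log2 units (SE 0.32, limma adjusted p = 1.59e-21). In the brain, the lowest organ, arrays lay between 2.84 and 4.91 (median 3.25, n = 10), a difference of -3.86 (SE 0.27, limma adjusted p = 5.20e-31). Neighbouring organs were seldom apart: for each member probeset, 29 or 30 of the 30 neighbouring pairs in its order of organs overlapped. The SD of the organ means was 1.54 for Irf7, and the median SD within a group of organ and sex was 0.68. For Irf1 these values were 1.70 and 0.32, and for the other probeset of Mx2 0.69 and 1.30.

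The antiviral effectors had different leading organs. Mx1 was lymphoid: the mandibular lymph node ran from 9.76 to 10.91 (median 10.73, n = 9), the mesenteric lymph node from 9.35 to 10.76 (median 10.19, n = 8) and the spleen from 9.05 to 11.30 (median 9.87, n = 8). Uterus (8.66 ± 1.31, n = 5) and thymus (8.59 ± 0.45, n = 8) came next, and only 6 of 31 organs had a mean above the threshold. The difference from the other organs was 5.32 in the mandibular lymph node (SE 0.29, limma adjusted p = 7.63e-43) and -2.16 in the soleus muscle, its lowest organ (SE 0.32, limma adjusted p = 4.26e-10).

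Mx2, Isg15 and Oas1a were each highest in the uterus. Its 5 arrays, females 1 to 5, read 8.05, 8.09, 9.54, 9.11 and 9.30 for Mx2. They read 9.15, 10.18, 10.41, 10.21 and 10.26 for Isg15. For Oas1a they read 7.35, 7.64, 8.51, 7.86 and 8.04. Female 1 was the lowest of the 5 for each of the 3 genes. Uterus exceeded the other organs by 3.51 for Mx2 (SE 0.34, limma adjusted p = 8.43e-19), by 4.19 for Isg15 (SE 0.49, limma adjusted p = 2.15e-14) and by 3.34 for Oas1a (SE 0.39, limma adjusted p = 3.36e-14). Leukocyte markers (Ptprc, Coro1a, Laptm5, Cd53 and Cd52) averaged 7.20 in the uterus and 12.08 in the spleen, and those of macrophages 6.87 and 10.67. Their part in the order of organs was not tested.

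In gut organs the calls of the receptor and Irf1 went the other way from those of the GTPases, whose means were below the expression threshold in most organs. In ileum, jejunum, caecum, colon and duodenum both probesets of Ifngr2 and Irf1 were called higher than in the other organs, whereas Mx2 was called lower in all 5 and Mx1 in caecum, duodenum and ileum. Of all probesets, 7.08% (colon) to 7.95% (ileum) were called higher in these 5 organs, and 5.52% (colon) to 8.13% (ileum) lower. Mx1 and Mx2 each had a mean above the expression threshold in only 6 organs, and every ileum array of Mx2 lay below it. Mx1 was also called lower in brain and testes, and its lowest organ was the soleus muscle (mean 3.29). Its lower calls were therefore not particular to the gut. Low levels of Mx2 were not particular to the gut either, and its epididymis arrays read 3.83, 4.16 and 3.87. In the ileum, Mx2 ran from 3.34 to 4.36 (median 3.93, n = 10), 1.53 log2 units below the other organs (difference -1.53, limma adjusted p = 8.62e-09). Isg15 did the opposite there and ran from 8.36 to 9.80 (median 9.09), a difference of 3.16 (SE 0.35, limma adjusted p = 5.42e-16). Oas1a differed within the gut: caecum arrays lay between 6.42 and 8.14 (median 7.01, n = 10) and duodenum arrays between 2.74 and 3.56 (median 2.88, n = 9), without overlap. In the testes all members except both probesets of Mx2 were called lower, where 23.4% of all probesets were lower. In the brain 6 genes were called lower (Irf1, Irf7, Isg15, Mx1, Oas1a and Stat2), where 17.7% of all probesets were.

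**Figure D1:**
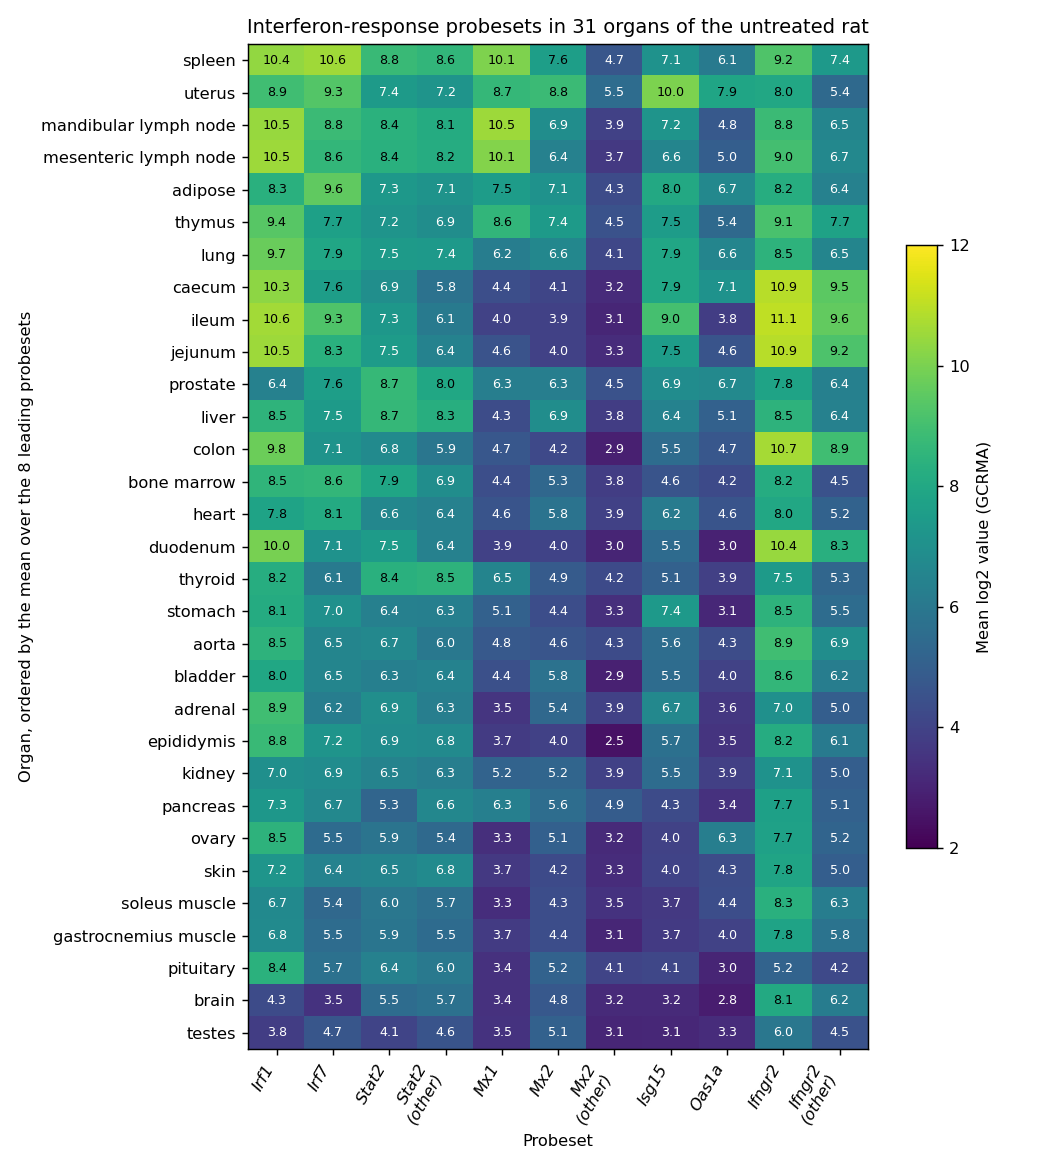
Mean log2 value of the 11 probesets (columns) in 31 organs (rows, ordered by the mean over the 8 leading probesets), printed in each cell and shown as colour. Within a column the intestine leads for Ifngr2, lymphoid organs for Mx1 and the uterus for Mx2, Isg15 and Oas1a, and brain and testes come last in the order of rows.

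Other genes of the pathway followed in the same organs. Of a list of 60 further interferon-stimulated genes, 48 had a probeset. In the spleen 29 of the 48 were called higher and 0 lower (median difference 1.48, against -0.09 over all probesets, of which 8.32% were higher), and in the uterus 23 were higher and 0 lower (median 1.16, with 8.16% of all probesets higher). In the brain 0 were higher and 35 lower (median -2.92, against -0.17 over all probesets, of which 17.7% were lower), and in the testes 2 were higher and 32 lower, where 23.4% of all probesets were lower. Of 23 genes induced by interferon gamma, 17 were higher in the spleen and 19 were lower in the brain. Only 3 of 13 interferon genes had a probeset, and none of these 3 passed the threshold in any organ.

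For Irf7, Isg15, Mx1, Mx2, Oas1a and Stat2 the prostate had the widest spread (SD over arrays) of all organs. Males 1 to 5 read 11.23, 5.55, 6.32, 9.32 and 5.58 for Irf7. They read 11.57, 3.50, 5.13, 9.47 and 4.63 for Isg15. For Mx1 the values were 10.22, 3.59, 5.28, 7.91 and 4.48. Males 1 and 4 were the highest for all 3 genes and were also the highest for Mx2 (10.03 and 7.94, against 3.93, 5.02 and 4.55) and Oas1a (9.66 and 8.59, against 5.06, 5.81 and 4.49). Stat2 read 10.04 in male 1 and 8.0 to 8.74 in the other prostates, and Ifngr2 lay between 7.62 and 8.01 in all 5. Leukocyte markers moved with this: their mean was 8.97 in male 1 and 6.38 in male 4, and 4.69 to 4.96 in the other 3. T cell markers averaged 5.32 and 4.11, against 2.91 to 3.38, and macrophage markers 6.43 and 6.15, against 4.30 to 4.80, while B cell markers stayed between 2.29 and 2.47 in all 5 arrays. Their part in the prostate values was not tested, and the prostate did not enter the comparison of rats.

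Rats differed as individuals across their organs. With organ and sex in the model, an F test in limma of all rat terms was called for 7 of 11 probesets, against 7.15% of all probesets (8 of 11 at an unadjusted p under 0.05). Adjusted p was 5.95e-09 for Irf7, 1.42e-08 for Oas1a, 1.97e-04 for Irf1, 3.13e-04 for Mx2, 0.0189 for Mx1 and 0.0454 for Isg15, and the other probeset of Mx2 was the seventh (9.14e-33). The Isg15 call was lost under quantile normalization, without male 1 and without female 2, 3, 4 or 5 (adjusted p from 0.0564 to 0.519), the Mx1 call without male 1 (0.631) or without lymphoid organs (0.0627), and the Irf7 call without female 2 (0.0706). Stat2 (0.785 and 0.432 for its 2 probesets) and Ifngr2 (0.193 and 0.723) did not pass. The SD of the rat effects was 0.46 for Oas1a and 0.44 for Irf7, ranks 164 and 182 among all 31042 probesets, and 0.05 for Stat2, rank 20763. Rats were housed 2 to 3 in a cage, and which rats shared a cage is not stated, so cage and rat cannot be told apart. Of these 7 calls, 2 were left when male 1 and female 2 were both taken out, and Irf7, Oas1a, Mx1, Mx2 and Isg15 were then not called.

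Female 2 and male 1 stood above the rest. After the test over all rats was seen, each rat was compared with the other rats of its sex. Of 110 such comparisons of the 11 probesets 19 were called, against 1.48% over all probesets (31 at an unadjusted p under 0.05). These 19 went in both directions and included other rats as well. They also hold the calls of the other probeset of Mx2, given below. In the lung, Irf7 read 7.76, 9.75, 7.39, 7.02 and 7.71 in females 1 to 5 and 8.61, 7.40, 7.77, 8.42 and 7.45 in males 1 to 5. In the kidney it read 6.27, 8.09, 6.63, 6.63 and 7.06 in the females and 7.49, 6.64, 7.01, 6.60 and 6.30 in the males. In the brain, where it was lowest, the females read 2.84, 4.91, 3.18, 3.21 and 3.64 and the males 4.39, 3.28, 2.96, 3.37 and 3.0. In all 3 organs female 2 was the highest female and male 1 the highest male. Over all organs of the comparison, Irf7 was above the mean of the other arrays of its group in 20 of 22 organs of female 2 and in 19 of 20 organs of male 1, and the highest of its group in 16 and 12. The estimated difference was 1.28 in female 2 (SE 0.16, 2.42-fold, limma adjusted p = 7.27e-10) and 0.63 in male 1 (SE 0.17, 1.55-fold, limma adjusted p = 0.0152).

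Oas1a followed the same 2 animals. In the liver it read 4.58, 8.12, 3.43, 3.11 and 4.96 in females 1 to 5 and 7.34, 5.39, 5.47 and 3.30 in males 1, 3, 4 and 5, so that female 2 and male 1 were the only livers above the threshold. Female 2 was the highest of its group in 19 of 22 organs and male 1 in 12 of 20. Most of these Oas1a values were below the expression threshold, which 4 of 22 arrays of female 2 and 5 of 20 of male 1 passed. The difference was 1.26 in female 2 (SE 0.17, 2.40-fold, limma adjusted p = 1.26e-08) and 0.72 in male 1 (SE 0.18, 1.64-fold, limma adjusted p = 0.00760).

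Isg15, Mx1 and Mx2 differed between the 2 animals in what was called. In male 1 Mx1 was higher by 0.85 (SE 0.19, limma adjusted p = 0.00223) and Isg15 by 0.84 (SE 0.24, limma adjusted p = 0.0228), whereas its Mx2 difference of 0.38 did not pass (limma adjusted p = 0.164). In female 2 Mx2 was higher by 0.63 (SE 0.15, limma adjusted p = 0.00984, and 0.0640 without female 4), and the differences of Isg15 (0.70, adjusted p = 0.128) and Mx1 (0.35, adjusted p = 0.591) did not pass. Isg15 lay above the other arrays in 18 of 22 organs of female 2 and in 18 of 20 of male 1. Whether the 2 animals differ from each other was not tested. Irf1 was higher in male 1 (0.33, SE 0.09, limma adjusted p = 0.0158, but 0.104 without male 4 and 0.0737 without male 5), and lower in male 4 (-0.36, adjusted p = 0.0214) and male 5 (-0.32, adjusted p = 0.0416), where 0.506% and 0.754% of all probesets were lower. Stat2 differed by 0.05 in female 2 and -0.01 in male 1 (adjusted p = 0.906 and 0.940), and Ifngr2 by -0.05 and 0.05 (adjusted p = 0.885 and 0.702).

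The spleen of female 2 was an exception to its own pattern. For Isg15 the spleens of females 1 to 5 read 6.59, 4.66, 8.96, 6.61 and 7.57 and those of males 1 to 3 read 8.81, 5.72 and 7.31. Irf7 read 10.47, 9.61, 12.05, 10.26 and 10.74 in the females and 11.22, 9.70 and 10.73 in the males. Female 2 was thus the lowest female spleen and female 3 the highest for both genes, and the same held for Mx1 (9.05 and 11.30), Mx2 (6.63 and 9.03) and Oas1a (4.59 and 7.63). Male 1 was the highest male spleen for all 5. In the stomach too, female 2 lay below the mean of the other females for these 5 genes, by 0.11 for Oas1a (2.87 in that array) to 1.49 for Isg15 (5.0 in that array).

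**Figure D2:**
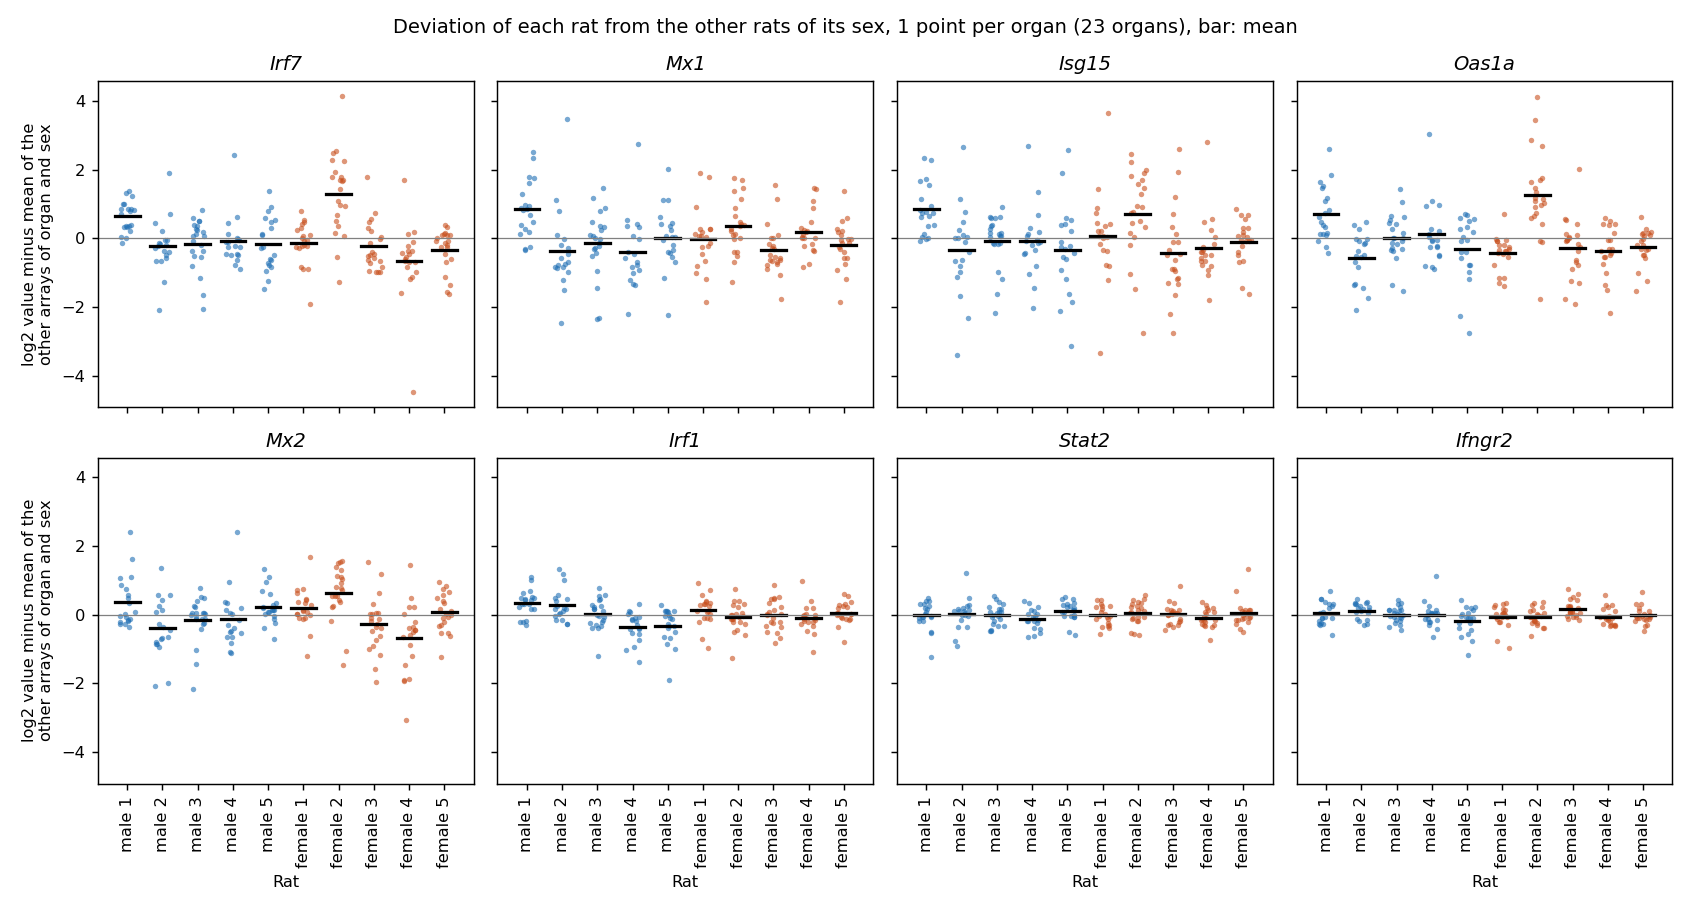
Each point is 1 array, plotted by rat (horizontal axis) as its log2 value minus the mean of the other arrays of the same organ and sex (vertical axis), with a black bar at the mean of the rat. For Irf7 and Oas1a the points of male 1 and female 2 lie mostly above 0 (means of 0.64 and 1.30 for Irf7), female 4 has the lowest mean for Irf7 (-0.67), and for Stat2 and Ifngr2 no rat stands apart.

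Other interferon-stimulated genes moved in the same rats. Of the 48 genes of the list, 21 were called between rats, against 7.15% of all probesets. Male 1 had 17 higher and 0 lower (median 0.28 against -0.02 over all probesets, 43 of 48 above 0), where 2.55% of all probesets were higher in this rat. Female 2 had 11 higher and 0 lower (40 of 48 above 0), against 0.693% of all probesets. In both rats 8 genes were higher: Ifi27l2b, Ifit2, Parp9, Rtp4, Slfn4, Tap1, Ube2l6 and Usp18. Slfn4, of the Schlafen family, was higher by 1.23 in male 1 and 1.28 in female 2, and Usp18, the protease that removes Isg15 from its targets, by 0.64 and 0.60. Ifit1, an antiviral RNA-binding protein, was higher by 1.12 in female 2 and differed by -0.21 in male 1 (limma adjusted p = 0.483). Irf9, the partner of Stat2, was higher by 0.29 in male 1 (limma adjusted p = 0.0467) and 0.40 in female 2 (limma adjusted p = 0.0018). Of 23 genes induced by interferon gamma 3 were higher in male 1 (Igtp, Irgm and Irgm2) and 3 in female 2 (B2m, Irgm and Psmb9).

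Female 4 was lower in some of these genes. Its Irf7 difference was -0.62 (limma adjusted p = 0.0411) and its Mx2 difference -0.68 (limma adjusted p = 0.00868), and of the 48 listed genes 4 were lower (Ifi44l, Ifit1, Lgals3bp and Slfn4) and 1 higher (Trim25), against 0.38% of all probesets lower and 0.599% higher in this rat. These differences are against means that hold female 2, and without female 2 they were -0.31 for Irf7 (limma adjusted p = 0.471) and -0.56 for Mx2 (limma adjusted p = 0.0756).

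Cell type markers were taken from the same fits. Between rats (7.15% of all probesets called) 0 of 8 T cell markers, 0 of 3 B cell markers and 0 of 4 markers of plasmacytoid dendritic cells were called, and 1 of 5 leukocyte markers (Cd52, with a difference of -0.82 in male 1), 1 of 10 macrophage markers (Adgre1), 1 of 6 natural killer cell markers (Gzmb) and 1 of 5 neutrophil markers (Itgam). Itgam was the only one of these markers called higher in male 1, by 0.38 (limma adjusted p = 0.0430). The median difference in male 1 was 0.42 over the leukocyte markers, 0.38 over the neutrophil markers and 0.07 over the macrophage markers, beside 0.28 over the 48 interferon-stimulated genes, and 8 of 8 T cell markers and 5 of 5 neutrophil markers were above 0. In female 2 these medians were 0.02, 0.07 and 0.10, and 1 of 8 T cell markers and 3 of 5 neutrophil markers were above 0. The mean of the leukocyte markers lay above the other arrays in 11 of 20 organs of male 1 and 12 of 22 of female 2, and that of the neutrophil markers in 15 of 20 and 13 of 22. Their part in the difference between rats was not tested. Without spleen, thymus and both lymph nodes the Irf7 difference was 1.46 in female 2 (limma adjusted p = 1.42e-10) and 0.60 in male 1, where it no longer passed (limma adjusted p = 0.0502).

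**Figure D3:**
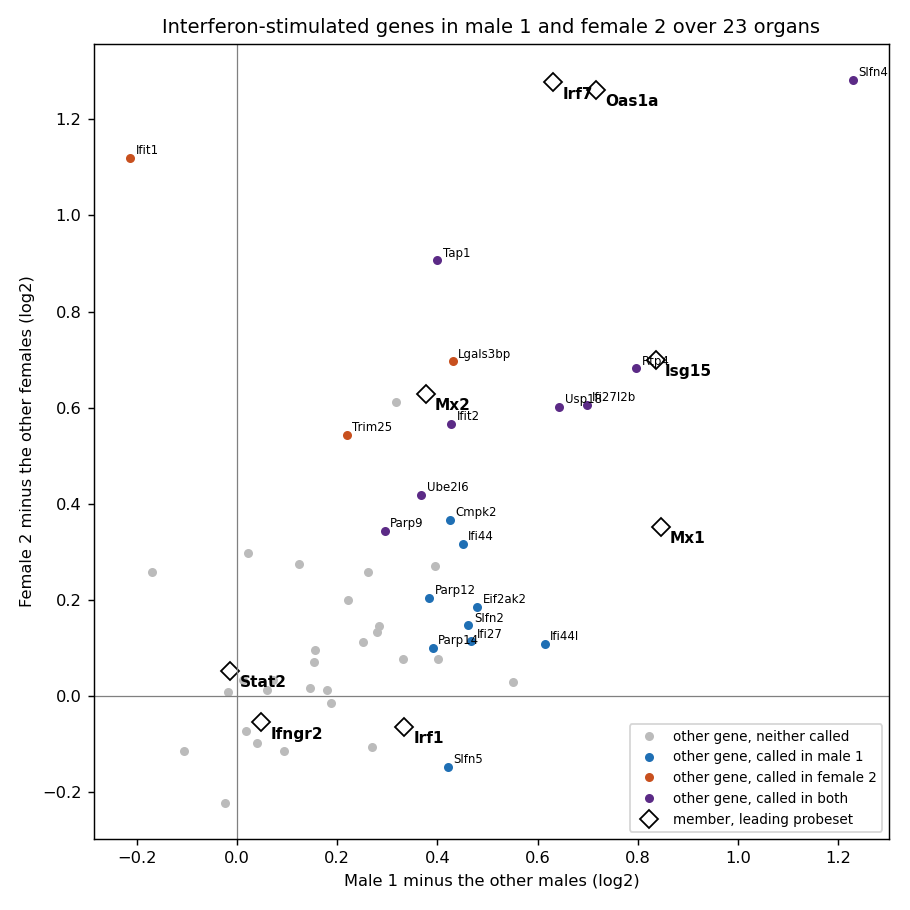
Log2 difference of male 1 from the other males (horizontal axis) and of female 2 from the other females (vertical axis) for the 8 members (diamonds) and the 48 other interferon-stimulated genes (points, coloured by the rat in which they were called). Irf7 (0.63 and 1.28) and Oas1a (0.72 and 1.26) lie in the upper right, and Stat2 and Ifngr2 lie near the origin.

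The other probeset of Mx2 singled out male 1 again, but female 4 and not female 2. Its mean passed the threshold in no organ, yet 22 arrays lay above that level. In the kidney it read 2.60, 2.53, 2.72, 9.0 and 3.86 in females 1 to 5 and 8.07, 2.59, 2.63, 2.59 and 2.59 in males 1 to 5. In the lung the females read 2.55, 2.55, 2.44, 7.77 and 6.17 and the males 9.43, 2.51, 2.48, 2.63 and 2.58. In both organs male 1 was far above the other males and female 4 was the highest female, with female 5 next. Over the organs of the comparison its median was 6.68 in male 1 (3.86 to 10.32, the highest male in all 20 organs), 5.74 in female 4 (2.50 to 9.26, the highest female in 16 of 20) and 4.25 in female 5 (2.75 to 6.77), and 2.59 to 2.72 in the other 7 rats. The difference from the other rats of the sex was 3.98 in male 1 (SE 0.26, 15.7-fold, limma adjusted p = 6.60e-28) and 2.48 in female 4 (SE 0.26, 5.56-fold, limma adjusted p = 1.98e-13). Calls of this probeset as lower in females 1, 2 and 3 and males 2 and 3 were made against means that hold these high rats. Its rat effects had an SD of 1.47, rank 11 of 31042.

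The 2 probesets of Mx2 had little in common within a group. Over the 31 organ means they correlated with r = 0.76, and over the deviations of all arrays from their group means with r = 0.08. For comparison the 2 probesets of Ifngr2 reached 0.52 and those of Stat2 0.50 over the same deviations. In the leading probeset of Mx2 female 4 had the lower level (-0.68), and in the other probeset the higher. Organs outside the comparison gave 10.44 in the prostate of male 1, with 2.62 to 3.84 in the other 4 males, and 2.44, 9.99, 2.53, 6.32 and 6.41 in the uterus of females 1 to 5, where female 2 was the highest. In organs numbered in a series of their own the high arrays carried other numbers: in the pituitary males 1 to 5 read 2.89, 8.28, 3.36, 2.64 and 6.51, and in the adrenal 3.11, 6.87, 3.10, 4.63 and 3.14. Mx1 and Mx2 are close homologues and the probes themselves were not analysed here.

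**Figure D4:**
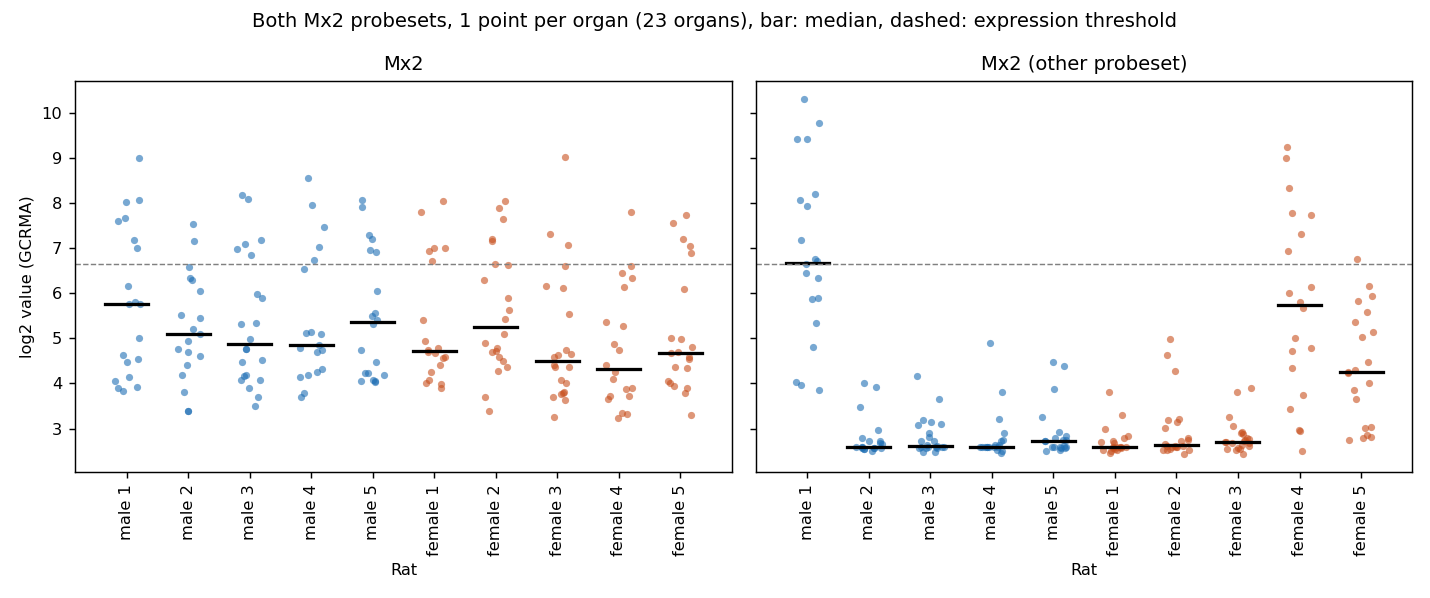
Log2 values of the leading (first panel) and the other probeset of Mx2 (second panel) by rat, 1 point per array, over the 23 organs of the comparison, with the median as a bar and the expression threshold as a dashed line. In the other probeset male 1 (median 6.68), female 4 (5.74) and female 5 (4.25) stand above the other 7 rats, whose medians lie between 2.59 and 2.72, and in the leading probeset the ranges of all 10 rats overlap.

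Between the sexes, 2 of 286 comparisons of a member probeset in a somatic organ were SDE (sexually dimorphically expressed, with an adjusted p below 0.05, over 2-fold and a mean above the threshold in at least 1 sex), against 0.312% over all probesets. An unadjusted p under 0.05 was seen in 47 of 286. For this and the other unadjusted counts, the share over all probesets is not given here. Both SDE calls were in the duodenum and higher in males, where 2.27% of all probesets were SDE towards males. Irf7 read 8.17, 8.33, 8.82, 8.51 and 6.97 in males 1 to 5 and 6.44, 6.31, 6.19 and 5.20 in females 1, 2, 3 and 5. The other probeset of Ifngr2 read 9.10, 9.04, 9.32, 9.54 and 8.84 in the males and 6.66, 7.53, 7.70 and 8.04 in the females. No male array overlapped with a female array for either. The difference was 2.13 for Irf7 (SE 0.41, limma adjusted p = 0.0189) and 1.68 for the Ifngr2 probeset (SE 0.27, limma adjusted p = 0.0107). Without both male 1 and female 2, adjusted p was 0.103 for Irf7 (difference 2.22) and 0.0777 for Ifngr2 (1.72).

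Means of 3 further probesets were higher in the male duodenum without meeting all criteria. The leading probeset of Ifngr2 read 10.60, 11.06, 10.83, 10.83 and 10.58 in males and 9.38, 10.22, 10.49 and 10.33 in females, a difference of 0.68 with no overlap (limma adjusted p = 0.111). Stat2 read 7.88, 7.98, 7.92, 8.04 and 7.47 in males and 6.94, 7.08, 7.44 and 7.07 in females, a difference of 0.72 below 2-fold (limma adjusted p = 0.0190, where 9.35% of all probesets passed on p alone). Isg15 read 6.49, 6.49, 7.23, 7.04 and 5.20 in males and 7.25, 3.74, 3.65 and 3.42 in females, and female 1 overlapped with the males (difference 1.98, SE 0.84, limma adjusted p = 0.210). Mx1 (-0.32, adjusted p = 0.752), Mx2 (-0.23, adjusted p = 0.775) and Oas1a (-0.10, adjusted p = 0.805) had lower means in the male duodenum and did not pass limma's test. Every duodenum array of these 3 genes lay below the expression threshold, so their direction there says little. For Mx1, female 1 read 5.53 and the other duodenum arrays 3.51 to 4.04. Of the 48 other interferon-stimulated genes 8 were SDE and higher in the male duodenum and 0 in the female (median 0.48 against 0.01 over all probesets), among them Mov10 (2.80), Cmpk2 (1.57), Parp14 (1.44) and Samhd1 (1.27). Jak2, a kinase of the interferon gamma receptor, was higher by 1.01. All 5 leukocyte markers and 8 of 10 macrophage markers were also higher in the mean of the males, with leukocyte means of 5.91 to 6.78 in males and 5.06 to 6.12 in females and Coro1a higher by 1.70 (limma adjusted p = 0.0258). Their part in the difference was not tested.

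In the liver the means of Irf1 and Ifngr2 were higher in females. From these same arrays, the paper had already named both among female-biased genes of the liver. A higher female level did not hold for all members, and Mx2 overlapped there (6.95 to 7.02 in males, 5.28 to 8.05 in females). Irf1 read 8.17, 8.37, 7.16 and 8.02 in males 1, 3, 4 and 5 and 9.54, 8.62, 9.44, 8.70 and 9.10 in females 1 to 5, with no overlap. Ifngr2 read 8.36, 7.84, 7.85 and 8.0 in the males and 9.15, 8.43, 8.97, 9.04 and 9.0 in the females, again with no overlap. The male minus female difference was -1.15 for Irf1 (SE 0.29, limma adjusted p = 0.109) and -0.91 for Ifngr2 (SE 0.17, limma adjusted p = 0.0381), which is below 2-fold, in an organ where 2.13% of all probesets passed on p alone. Macrophage markers were lower in males in 10 of 10 (7.71 to 8.25 in males and 8.22 to 9.78 in females), and leukocyte markers averaged 5.37 to 5.85 in males and 5.83 to 6.66 in females. Their part in the liver values was not tested.

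Whether the difference between the sexes in 1 organ differs from that in the other 25 was tested in limma over all groups. Of 286 comparisons 4 were called, against 0.491% over all probesets (34 at an unadjusted p under 0.05). In the duodenum the excess was 1.81 for Irf7 (SE 0.58, limma adjusted p = 0.0215) and 1.66 for the other probeset of Ifngr2 (SE 0.29, limma adjusted p = 4.07e-06), where 2.47% of all probesets were called in that direction. In the liver it was -1.17 for Irf1 (SE 0.28, limma adjusted p = 0.00221) and -1.25 for the other probeset of Ifngr2 (SE 0.29, limma adjusted p = 0.00131), where the share was 0.686%. These liver calls came from the arrays in which the paper had already named both genes as female-biased. The Irf7 call was lost without male 2, 3 or 4 or without female 5 (adjusted p = 0.0542, 0.0879, 0.0554 and 0.112), and the liver difference of Irf1 was below 2-fold without male 4 (-0.97, limma adjusted p = 0.0403).

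The jejunum, next to the duodenum, had no SDE call of a member. Irf7 read 9.24, 9.04, 8.79 and 8.75 in males 1, 3, 4 and 5 and 7.72, 8.13, 7.95, 7.42 and 7.36 in females 1 to 5 (difference 1.24, SE 0.18, limma adjusted p = 0.0721). Isg15 read 9.08, 9.06, 7.52 and 8.76 in the males and 6.52, 6.74, 7.44, 6.52 and 5.18 in the females (difference 2.13, SE 0.49, limma adjusted p = 0.192). The sexes overlapped for neither gene, but neither passed limma's test, where 0.158% of all probesets passed on p alone. The share of all probesets without overlap is not given here for any organ, so lack of overlap alone does not establish a difference.

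The bladder, whose arrays spread widely, had differences of 2.36 for Isg15 (SE 1.11), 2.02 for Mx2 (SE 0.74) and 1.79 for Irf7 (SE 0.85), none past the test (limma adjusted p = 0.941, 0.820 and 0.946). In the pituitary Irf1 read 9.20, 8.66, 9.03, 8.64 and 8.77 in males and 8.12, 7.83, 7.91, 7.85 and 7.97 in females, with no overlap (difference 0.92, SE 0.12, limma adjusted p = 0.00243, below 2-fold, where 7.25% of all probesets passed on p alone). Of the listed interferon-stimulated genes, Ifi44 (1.77), Rsad2 (1.40), Ifi44l (1.36) and Rtp4 (1.18) were SDE and higher in the male pituitary. Slfn2 (-2.38) and Ifi27l2b (-1.10) were SDE and higher in the female pituitary. Of all probesets, 0.606% were SDE towards males there and 0.567% towards females. In the kidney Mx1 read 6.01, 5.77, 5.95, 5.37 and 5.37 in males and 4.01, 5.37, 4.11, 4.75 and 5.06 in females (difference 1.03, limma adjusted p = 0.0459, where 11.6% of all probesets passed on p alone). Isg15 read 7.16, 5.76, 6.73, 6.34 and 6.07 in male kidneys and 3.69, 5.93, 3.64, 4.87 and 5.22 in female kidneys (difference 1.74, SE 0.48, limma adjusted p = 0.0486). The sexes overlapped for Isg15. Female 2 was the highest female kidney for both Mx1 and Isg15, and the group means of both genes stayed below the threshold, so neither was SDE. Among the listed genes, Ifit2 was SDE and higher in the male kidney (1.06). Jak2 was SDE and higher in the female kidney (-2.17), opposite to its direction in the duodenum.

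**Figure D5:**
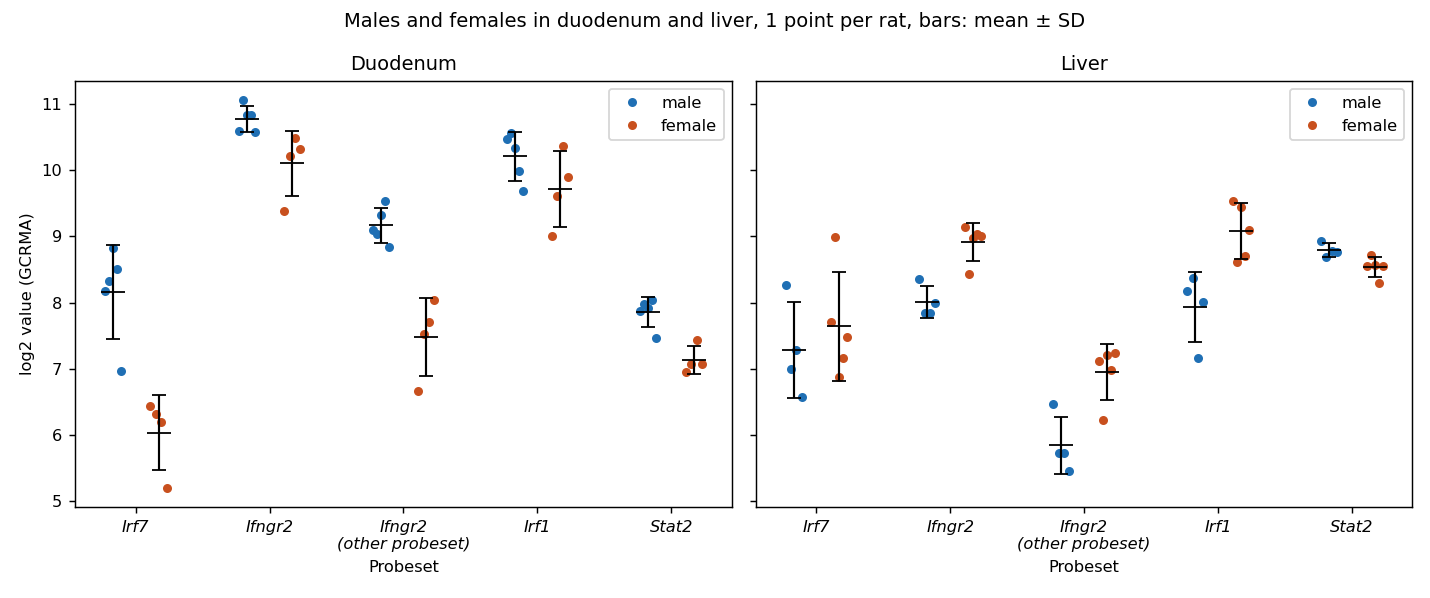
Log2 values per array of male and female rats in duodenum and liver for Irf7, both probesets of Ifngr2, Irf1 and Stat2, with bars at the mean ± SD. Irf7 and the other probeset of Ifngr2 are higher in the male duodenum without overlap, and Irf1 and Ifngr2 are higher in the female liver without overlap.

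The members differed in how closely they varied together. Over the deviations of all arrays from their group means, the 10 pairs among Irf7, Mx1, Mx2, Isg15 and Oas1a correlated with r between 0.46 and 0.74, and between 0.39 and 0.70 without male 1 and female 2. With these 5 genes Irf1 correlated between 0.18 and 0.45, Stat2 between 0.27 and 0.43, the other probeset of Mx2 between 0.08 and 0.29 and the 2 probesets of Ifngr2 between -0.17 and 0.07. Arrays of 1 rat and arrays of 1 organ share their source, so these values are descriptions.

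By the same measure the genes most like each member over these deviations were Rtp4 (0.75), RT1-S3 (0.72) and Slfn4 (0.70) for Irf7, and Rtp4 (0.73), Usp18 (0.66) and Ifi27l2b (0.61) for Isg15. Usp18 was closest to Mx2 (0.63) and to Oas1a (0.66), and Slfn4 to Mx1 (0.65). For Irf1 they were Sp110 (0.63), Igtp (0.58) and Psmb8 (0.54), for Stat2 Rnf213 (0.45), and for Ifngr2 Dnajc15 (0.45), a mitochondrial protein. Over the 31 organ means, Irf1 was most like Psme2 (0.92), a proteasome activator subunit, and B2m (0.89), the light chain of MHC class I. Irf7 was most like Sp140 (0.85), Stat2 like RT1-S3 (0.85), Mx1 like Cd40 (0.87), Mx2 like Ifgga2l1 (0.78), Isg15 like Nmi (0.76), Oas1a like Cd14 (0.69) and Ifngr2 like Trit1 (0.83).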

How the data were processed

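Members and gene lists were chosen with earlier results of these data known. The authors hybridised the arrays, removed those failing quality control and deposited GCRMA summaries on a log2 scale. Not given in the sources used here were the GCRMA version and which arrays were normalized together. No further log was taken. Per the array annotation, 20826 probesets had 1 symbol, 436 several and 9780 none. Groups were organ and sex, from the titles. Sex within each organ, organ against organ, the difference of sex differences and rat terms were tested with limma 3.58.1 (R 4.3.3, statmod 1.5.0) over all 31042 probesets with Benjamini-Hochberg adjustment, and the code was tested on simulated data. For the sex difference limma replaced the t-test of the methods, which was an alternative. Calls between rats asked for an adjusted p under 0.05 alone. Named genes were the 8 members, the 3 genes most like each by Pearson r, and listed genes called in a contrast of a member, up to 10. Alternatives changed the test, thresholds, normalization, organs, rats and replicate block. The comparison of single rats was added after the data were seen. Python 3.11.15, pandas 2.3.3, numpy 2.4.6 and matplotlib 3.10.9 were used. Replicates are separate rats.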

Additional observations from a re-analysis of the deposited data

Results flagged for a closer look

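Groups of 4 or 5 arrays were looked at for each leading probeset where the group mean was above the expression threshold. In 14 of 211 such groups (6.64%) the highest or lowest array of a leading probeset stood apart from the rest by Dixon's criterion, and chance alone flags about 1 in 20 groups. Of these, 6 lay above the others, 2 belonged to female 2 and 0 to male 1. Female 1 was low in the uterus for Mx1 (6.37, mean of the other females 9.23), Isg15 (9.15, against 10.27) and Stat2 (6.55, against 7.67). Female 3 was high for Irf1 in spleen (10.75) and thymus (9.72) and low for Mx1 in the mandibular lymph node (9.76, against 10.82). Female 2 was high for Irf7 in the lung (9.75, against 7.47) and low for Ifngr2 in the liver (8.43, against 9.04). Female 4 was high for Ifngr2 in brain (8.31) and ileum (11.26). Male 2 was low for Isg15 in adipose (7.90, against 9.02) and high for Stat2 in the caecum (7.26), and male 5 was low for Stat2 in the duodenum (7.47) and for Ifngr2 in the thyroid (6.92).

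A difference between the sexes differed from that of the other organs in 4 cases by the limma contrast. The values were 1.81 for Irf7 and 1.66 for the other probeset of Ifngr2 in the duodenum, and -1.17 for Irf1 and -1.25 for the other probeset of Ifngr2 in the liver.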

How the results depend on the processing

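No result changed direction under any alternative run. The number of SDE calls between the sexes, 2 in the main analysis, was 6 with 1 limma fit over all groups, 4 with no expression threshold, 5 with a 1.5-fold threshold, 5 with no fold threshold and 6 with adjustment over expressed probesets, and 2 with the methods' t-test. Leaving out 1 rat gave 2 to 4 (4 without female 2). Calls of a sex difference that differs from the other organs, 4 in the main analysis, were 11 at 1.5-fold and 7 without both male 1 and female 2, and 2 to 7 on leaving out 1 rat (7 without male 1, 2 without male 4). Calls between rats fell from 7 to 2 without both male 1 and female 2, an alternative chosen after seeing the data, and were 5 to 7 without 1 rat. Without both rats, adjusted p was 0.857 for Irf7, 0.782 for Mx1, 0.104 for Mx2, 0.944 for Isg15 and 0.489 for Oas1a. For Isg15 it was 0.0614 under quantile normalization. Calls of 1 rat against the others, 19 in all, were 4 without both rats and 10 to 18 without 1 rat (10 without male 1, 13 without female 2). Males and females share only the replicate number, not the animal. With that number as a replicate block in each organ there were 3 calls between the sexes. In the fit over all organs the block was the rat (sex and number), with an estimated correlation of 0.0105, and gave 4 calls of a sex difference that differs from the other organs and 150 of an organ against the others. With the number as a block the other probeset of Ifngr2 lost its call in the duodenum (1.59, limma adjusted p = 0.0910), and Irf1 (-1.26, 0.0475) and Ifngr2 (-1.03, 0.0494) passed in the liver. The count of organ calls, 149, ranged from 143 to 187. Signal near background limits what Oas1a, Mx1 and Mx2 can show in most organs.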
